A study of Mus musculus with 6 samples.

Results

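The long noncoding RNAs described here are 9 genes chosen by name: Malat1 and Neat1, the snoRNA host genes Gas5 and Snhg1, and the imprinted genes Meg3, Rian, Mirg, H19 and Kcnq1ot1. They were looked up by symbol among the 39179 genes of the deposited table, which holds 8 of the 9, on 9 rows because Rian is listed under 2 identifiers. Kcnq1ot1 has no row under that symbol and is not analysed here as a gene. Of the 8 listed genes, 4 (Malat1, Neat1, Gas5 and Snhg1) reached 0.5 RPKM (reads divided by gene length in kilobases and by library size) in at least 2 of the 6 libraries, the filter that 14264 genes passed, and entered the tests.

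RNA was sequenced from Ocy454, a mouse osteocytic cell line of which a single-cell subclone was used, so the cultures represent 1 clone. Cells grown to confluence at 33 °C were held at 37 °C for 14 days and then treated for 4 h with vehicle (PBS with 25 mM HCl in the labels, although the methods of the study name that solvent for animals and DMSO for cells), PTH 1-34 at 1 nM or YKL-05-093, an inhibitor of the salt-inducible kinases, at 0.5 µM. Each condition has 2 libraries, made from RNA depleted of ribosomal RNA rather than selected by a poly(A) tail. The study calls the replicates experimental duplicates, and neither it nor the labels say that they came from separate cultures, so the tests measure only the spread between these libraries, which may be technical.

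The library totals behind the RPKM values, solved from those values, were 17505798 to 27983585 reads. Reads recovered over the listed genes made up 99.71% to 99.73% of them. The study reports a higher average of sequenced read pairs per sample, so these totals are not its sequencing depth. The osteoblast genes Col1a1 and Ibsp were abundant, at 259 to 430 and 292 to 587 RPKM, and 13 of 17 osteocyte and osteoblast markers passed the filter. Among the osteocyte markers, Pdpn was at 53.1 to 171 RPKM, Phex at 0.764 to 4.93 RPKM and Dmp1 at 0.376 to 1.15 RPKM, while Sost, Mepe, Fgf23 and Kl did not reach 0.5 RPKM in any library. Of 24 listed markers of other cell types, 5 passed the filter, and their sum stayed between 83.0 and 105 RPKM in all 6 libraries, most of it the protease Ctsk. Col2a1, a cartilage collagen, rose with PTH from 0.625 and 0.577 RPKM to 1.71 and 1.54 RPKM (limma adjusted p = 0.0147). Of 10 rows of genes taken as a check on the hormone response, such as Tnfsf11, Fos and Nr4a2, 9 were called higher with each treatment than with vehicle. Over all tested genes 156 of 14261 were called higher with PTH and 56 of 14255 with YKL-05-093. The check genes were chosen with earlier results of these data known, and the study reports Nr4a2 from the same sequencing. Their calls were therefore largely fixed in advance and are no independent check.

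Long noncoding RNAs act as RNA, often in the nucleus. Malat1 is retained in nuclear speckles, bodies rich in splicing factors, and Neat1 is the scaffold of paraspeckles, which hold RNA-binding proteins of the SFPQ and NONO family. Gas5 and Snhg1 carry box C/D snoRNAs in their introns, while their spliced transcripts are rapidly degraded when translated. Meg3, Rian and Mirg are expressed from the maternal chromosome of the Dlk1-Dio3 cluster and are the source of many snoRNAs and miRNAs, H19 is the maternally expressed neighbour of the paternally expressed growth factor gene Igf2, and Kcnq1ot1 is a paternal transcript antisense to Kcnq1 that silences genes around it. The PTH receptor signals through cAMP, and the factor CREB binds the cAMP response element (CRE), an 8-base palindrome.

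Malat1 (ENSMUSG00000092341) lies on the minus strand of GRCm38 at chr19:5795690-5802672 and Neat1 (ENSMUSG00000092274) on the same strand at chr19:5824708-5845478. Each is annotated as a lincRNA of 1 merged exon. Gas5 (ENSMUSG00000053332) is at chr1:161034422-161038539 on the plus strand, and Snhg1 (ENSMUSG00000097188 in the table, placed by its symbol) at chr19:8723475-8726443 on the plus strand. The Dlk1-Dio3 members follow each other on the plus strand of chromosome 12, with Meg3 (ENSMUSG00000021268) at chr12:109541001-109571726, Rian (ENSMUSG00000097451) at chr12:109603940-109661716 and Mirg (ENSMUSG00000097391) at chr12:109729764-109749460. H19 (ENSMUSG00000000031) is at chr7:142575529-142578143 and Kcnq1ot1 at chr7:143203458-143296549, both on the minus strand.

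Promoter sequences, from 250 bases before to 50 bases after a start site, were available from RefSeq (GRCm38.p6) for 7 of the 9 genes. The CRE (TGACGTCA, its own reverse complement) occurred in Gas5 and Meg3, 46 and 57 bases before the start, and in 1.79% of all 32851 promoters. The half-site TGACG, searched on both strands and contained in each CRE, occurred in 20.8% of promoters. It was found at 3 places in Malat1, at 1 in Kcnq1ot1 and at none in Snhg1, Rian or Mirg. The start listed for Mirg, chr12:109734981, lies inside the gene, whose span begins at chr12:109729764. Its sequence therefore does not describe the bases before that span. A match is a string of letters and does not show that a factor bound there. The 3 promoters below are given because they hold a CRE or the most half-sites, in capitals, 5′ to 3′ on the strand of the gene; of the 2 starts listed for Gas5 and for Meg3, the one with the CRE is shown.
Gas5 (chr1:161034916-161035215, plus strand): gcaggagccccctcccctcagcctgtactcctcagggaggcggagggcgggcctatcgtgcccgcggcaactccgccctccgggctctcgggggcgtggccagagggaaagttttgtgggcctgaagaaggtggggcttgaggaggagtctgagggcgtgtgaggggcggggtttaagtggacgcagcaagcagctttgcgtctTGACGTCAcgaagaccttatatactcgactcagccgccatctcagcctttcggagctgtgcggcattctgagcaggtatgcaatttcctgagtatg
Meg3 (chr12:109540746-109541045, plus strand): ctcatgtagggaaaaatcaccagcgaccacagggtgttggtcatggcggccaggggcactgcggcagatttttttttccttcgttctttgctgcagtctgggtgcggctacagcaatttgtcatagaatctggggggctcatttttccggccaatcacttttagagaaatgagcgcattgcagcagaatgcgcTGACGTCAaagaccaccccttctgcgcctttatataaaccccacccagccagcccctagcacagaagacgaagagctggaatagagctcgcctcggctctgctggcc
Malat1 (chr19:5802623-5802922, minus strand): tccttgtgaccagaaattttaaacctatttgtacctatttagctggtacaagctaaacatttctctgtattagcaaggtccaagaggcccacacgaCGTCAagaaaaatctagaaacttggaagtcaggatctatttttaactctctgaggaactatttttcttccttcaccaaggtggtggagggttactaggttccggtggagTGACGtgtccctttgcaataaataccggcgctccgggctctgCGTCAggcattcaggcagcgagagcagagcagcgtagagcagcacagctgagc

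Host genes of snoRNAs are known to open with a run of pyrimidines, which ties their translation to growth signals. The opening 20 bases of the transcripts from RefSeq starts are given next, for Gas5 from the start shown above, with the opening run in capitals. A run that starts with C and is at least as long as that of Gas5 (5 bases) opened 2.51% of all promoters' transcripts. One at least as long as that of Snhg1 (3 bases) opened 5.81%. Both lengths include the C. The other Gas5 start, at chr1:161034601, opens with g and has no such run.
Gas5 (start at chr1:161035166): CTTTCggagctgtgcggcat
Snhg1 (start at chr19:8723487): CTCatttttccttgttcggg

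Inside Meg3, Rian, Mirg and H19, RefSeq lists 2, 3, 14 and 1 miRNA hairpins. Their mature arms number 26 in Mirg, and these have 25 seeds (bases 2 to 8), the only shared seed being that of miR-453 and miR-496a-5p. Those arms and an arm of each other host are given below with the seed in capitals, to show which RNAs these loci encode. None of the hairpin rows in the table had a read in any library, but libraries of this kind are made from long RNA and do not measure mature miRNAs.
mmu-miR-770-5p (Meg3, chr12:109563710-109563731, plus strand): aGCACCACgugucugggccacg
mmu-miR-370-3p (Rian, chr12:109618305-109618326, plus strand): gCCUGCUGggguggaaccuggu
mmu-miR-453 (Mirg, chr12:109735669-109735692, plus strand): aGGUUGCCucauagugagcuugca
mmu-miR-496a-5p (Mirg, chr12:109739132-109739152, plus strand): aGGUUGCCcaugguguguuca
mmu-miR-675-5p (H19, chr7:142577112-142577133, minus strand): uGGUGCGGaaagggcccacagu

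Malat1 and Gas5 were the most abundant of the 8 listed genes per length of RNA, Snhg1 came next, Neat1 was far lower, and the imprinted members were at or near 0. Over the 6 libraries, Malat1 averaged 57.5 RPKM, rank 1108 of all 39179 listed genes, Gas5 50.5 RPKM (rank 1269), Snhg1 16.4 RPKM (rank 3855) and Neat1 1.36 RPKM (rank 11749). The ranges of Malat1 and Gas5 overlapped, while those of Gas5, Snhg1 and Neat1 did not. Read depth was ample for all 4, with 7446 to 16105 reads per library for Malat1, 1887 to 4078 for Gas5, 740 to 1628 for Snhg1 and 541 to 758 for Neat1. The low RPKM of Neat1 is a value per base of a gene for which the table used 23411 bases.

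**Figure D1:**
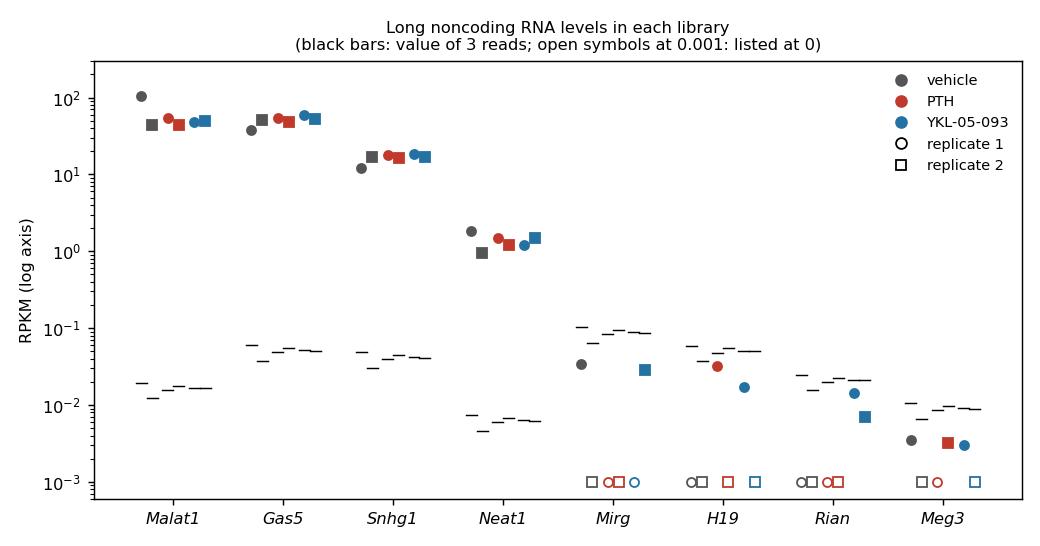
RPKM (log axis) of the 8 listed long noncoding RNAs in each library, with circles for replicate 1 and squares for replicate 2 of vehicle, PTH and YKL-05-093, black bars at the value of 3 reads and open symbols for values listed at 0. Malat1, Gas5, Snhg1 and Neat1 lie far above their bars, and every value of Mirg, H19, Rian and Meg3 lies below its bar.

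Malat1 was at 104 and 43.6 RPKM in the vehicle libraries, 53.9 and 44.3 RPKM with PTH, and 48.8 and 49.9 RPKM with YKL-05-093. The high value was that of vehicle replicate 1 alone, and the other 5 libraries lay within 43.6 to 53.9 RPKM. The group means were 74.0 ± 43.0 RPKM for vehicle, 49.1 ± 6.76 RPKM for PTH and 49.3 ± 0.779 RPKM for YKL-05-093 (SD, n = 2 each). In both comparisons with vehicle the groups overlapped.

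Neat1 was at 1.85 and 0.943 RPKM with vehicle, 1.47 and 1.21 RPKM with PTH, and 1.22 and 1.48 RPKM with YKL-05-093. Here too vehicle replicate 1 was the highest library and vehicle replicate 2 the lowest, and all 4 treated libraries lay between them. The means were 1.40 ± 0.641, 1.34 ± 0.183 and 1.35 ± 0.185 RPKM (SD, n = 2 each).

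Gas5 was at 37.7 and 51.0 RPKM with vehicle, 54.4 and 48.3 RPKM with PTH, and 59.7 and 52.1 RPKM with YKL-05-093. Vehicle replicate 1 was the lowest library for this gene, so that Gas5 was above Malat1 in the other 5 libraries and below it in that one. Both YKL-05-093 libraries exceeded both vehicle libraries, an absence of overlap shared by 37.8% of the 14255 genes tested in that comparison. The means were 44.3 ± 9.38, 51.3 ± 4.27 and 55.9 ± 5.42 RPKM (SD, n = 2 each).

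Snhg1 was at 12.1 and 16.6 RPKM with vehicle, 18.0 and 16.3 RPKM with PTH, and 18.6 and 16.6 RPKM with YKL-05-093. Vehicle replicate 1 was again the lowest library, and the other 5 lay within 16.3 to 18.6 RPKM. The means were 14.3 ± 3.21, 17.1 ± 1.20 and 17.6 ± 1.48 RPKM (SD, n = 2 each).

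To ask whether PTH changed these RNAs, PTH libraries were compared with vehicle by limma on log2(RPKM + 0.1), with a call set at a change over 2-fold and an adjusted p under 0.05. No member was called, 0 of the 4 tested, against 1.91% of all 14261 tested genes. Malat1 had a log2 fold change of -0.46 (SE 0.38, adjusted p = 0.698), and its 95% interval ran from a fold of 0.390 to 1.35. Neat1 had 0.01 (SE 0.29, adjusted p = 0.995), Gas5 0.23 (SE 0.20, adjusted p = 0.726) and Snhg1 0.27 (SE 0.20, adjusted p = 0.660). At an unadjusted p under 0.05 the count was also 0, the lowest p being 0.212 for Snhg1. With 2 libraries a side, an exact permutation test of 1 gene cannot give a two-sided p below 0.333, so the fit across all genes was used. In RNA of whole cultures, a lower level per cell and fewer cells that express a gene cannot be told apart. The groups overlapped for all 4 members, whereas they did not for 43.1% of tested genes.

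YKL-05-093 was compared with the same vehicle libraries, so the 2 comparisons are not independent of each other. Again 0 of the 4 tested members were called, against 0.666% of tested genes. The log2 fold changes were -0.45 for Malat1 (SE 0.38, adjusted p = 0.846), 0.02 for Neat1 (SE 0.29, adjusted p = 0.993), 0.35 for Gas5 (SE 0.20, adjusted p = 0.763) and 0.31 for Snhg1 (SE 0.20, adjusted p = 0.792). The 95% interval of Gas5 ran from a fold of 0.913 to 1.77 and that of Neat1 from 0.629 to 1.64.

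Replicates of the treated conditions lay closer together than the vehicle libraries, and the direct comparison of PTH with YKL-05-093 gave narrower intervals. None of the 4 members was called (0 of 4), against 1.21% of all tested genes. PTH relative to YKL-05-093 was a fold of 0.991 for Malat1 (95% interval 0.873 to 1.12), 0.991 for Neat1 (0.852 to 1.15), 0.919 for Gas5 (0.818 to 1.03) and 0.975 for Snhg1 (0.868 to 1.10). Their limma adjusted p-values were 0.958, 0.965, 0.412 and 0.855. All 4 pairs of groups overlapped, while 50.0% of tested genes showed no overlap.

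**Figure D2:**
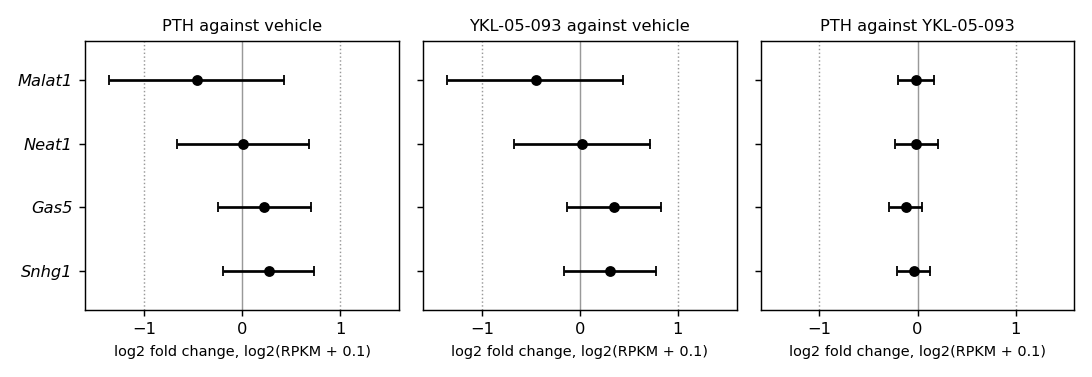
Log2 fold change on the log2(RPKM + 0.1) scale of Malat1, Neat1, Gas5 and Snhg1 in the 3 comparisons, with 95% intervals from limma and dotted lines at a 2-fold change. Every interval includes 0, and those of PTH against YKL-05-093, which do not use the vehicle libraries, are the narrowest.

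The vehicle libraries decided the values against vehicle. Replicate 1 exceeded replicate 2 by 1.26 (log2) for Malat1 and 0.90 for Neat1, gaps larger than those of all but 3.85% and 7.33% of tested genes, whose median gap was 0.33 in size. For Gas5 and Snhg1 replicate 1 was lower, by a log2 difference of -0.43 and -0.46. Within PTH and within YKL-05-093 the gaps of all 4 members were at most 0.28 in size. Without vehicle replicate 2, Malat1 was called lower with PTH (log2 fold change -1.09, adjusted p = 0.0113) and with YKL-05-093 (-1.08, adjusted p = 0.0267). Without vehicle replicate 1 its sign turned, to 0.16 (adjusted p = 0.478) and 0.18 (adjusted p = 0.215). Neat1 moved likewise, from -0.44 and -0.43 without replicate 2 to 0.46 and 0.47 without replicate 1, and was not called in either case. With PTH and with YKL-05-093, Gas5 was at 0.44 (adjusted p = 0.0324) and 0.56 (adjusted p = 0.0495) without vehicle replicate 2, under the 2-fold limit, and at 0.0079 and 0.13 without replicate 1. Snhg1 was at 0.50 (adjusted p = 0.0229) and 0.54 (adjusted p = 0.0487) without replicate 2, also under that limit, and at 0.043 and 0.080 without replicate 1.

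Gene length moved with this gap. Vehicle replicate 1 had 24.6% of its reads on genes longer than 6000 bases, against 17.2% to 18.8% in the other 5 libraries. When the tested genes were divided into 10 bins of equal number by length, the median log2 difference of vehicle replicate 1 minus 2 went from -0.42 for genes of 413 to 1081 bases to 0.58 for the longest bin, from 7814 bases up. Genes of up to 411 bases, the shortest bin, had medians of -0.16 (vehicle), -0.04 (PTH) and 0.21 (YKL-05-093). In that longest bin, which holds Malat1 and Neat1, the interquartile range of genes was 0.37 to 0.77, and both lay above it. Gas5 and Snhg1 lay below the interquartile ranges of their bins, -0.24 to 0.13 and -0.13 to 0.25. The medians of the PTH bins from 413 bases up stayed within 0.06 to 0.08 and those of YKL-05-093 within -0.04 to 0.08. With the length trend of each library removed, an alternative chosen after seeing the data, Malat1 was at -0.29 with PTH and -0.30 with YKL-05-093, Neat1 at 0.32 and 0.27, and 0 members were called. Whether length or something that moves with it set the vehicle gap was not tested.

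**Figure D3:**
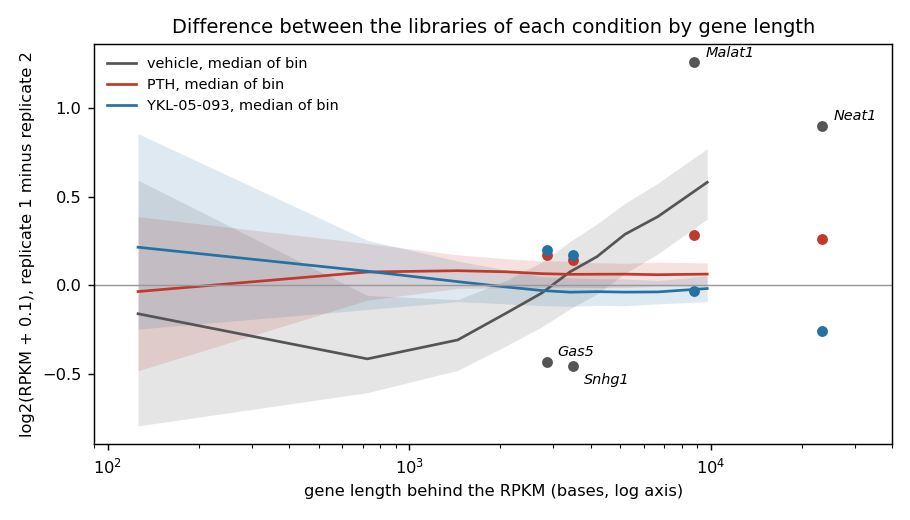
Difference in log2(RPKM + 0.1) between replicate 1 and replicate 2 of each condition against gene length (log axis), with lines for the median and bands for the interquartile range of tested genes in 10 length bins, and points for the 4 tested members. From the second bin on, the vehicle line climbs from -0.42 to 0.58 while the PTH line stays within 0.06 to 0.08, the YKL-05-093 line stays within -0.04 to 0.08, and Malat1 and Neat1 stand above the vehicle line.

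Gas5 and Snhg1 moved in step across libraries, and Malat1 and Neat1 less closely. The ratio of Gas5 to Snhg1, in RPKM, was 3.12 and 3.07 with vehicle, 3.02 and 2.97 with PTH and 3.20 and 3.15 with YKL-05-093, a narrow range over all 6. The ratio of Malat1 to Neat1 ranged more widely, with 56.5 and 46.2 in vehicle libraries, 36.6 and 36.6 with PTH and 39.9 and 33.6 with YKL-05-093. Both vehicle values of that ratio lay above all 4 treated values. This ratio was read after its values were seen and was not tested.

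Genes with the most similar profile were ranked by the root mean square difference of centred log2(RPKM + 0.1) values over the 6 libraries, as a description only, since all profiles share the same libraries. Snhg1 was the second nearest of all tested genes to Gas5 (0.04), after the pseudogene Rpl3-ps2 (0.03) and before Mterfd2 (0.04). Nearest to Snhg1 were Isoc2b, Gm15500 and Edem2 (0.03, 0.03 and 0.04), with Gas5 next. Malat1 was most like Mfsd4, Xist and Bmpr2, each highest in vehicle replicate 1. Xist, the long noncoding RNA of X inactivation, went from 6.52 RPKM in that library to 2.54 RPKM in vehicle replicate 2, and was at 2.87 to 3.09 RPKM in the treated libraries. Neat1 was most like 2610015P09Rik, Ppig and Atxn7 (0.04 to 0.06). Neat1 and Malat1 were at 0.26 from each other. Neat1 ranked 1167 in closeness to Malat1, and Malat1 ranked 3979 in closeness to Neat1. Gas5 and Snhg1 were further from Malat1, both at 0.61, and from Neat1, both at 0.43.

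The snoRNA hosts other than Gas5 and Snhg1 were examined next. Of 10 genes listed as such noncoding hosts with a row, 7 passed the filter. Mir17hg, which did not pass, is a miRNA host rather than a snoRNA host. None of the 7 was called against vehicle with either treatment, beside 1.91% and 0.666% of all tested genes. The median log2 fold change of the 7 was 0.15 with PTH and 0.16 with YKL-05-093, beside medians of -0.03 and -0.04 over all tested genes. With PTH 6 of the 7 had a positive value and with YKL-05-093 5 of the 7, values that rest on the same vehicle libraries. Snhg6 was at 15.5 and 18.8 RPKM with vehicle, 22.9 and 19.9 RPKM with PTH, and 21.6 and 19.7 RPKM with YKL-05-093 (adjusted p = 0.529 and 0.789). The 32 coding snoRNA hosts, mostly ribosomal protein genes such as Rpl4 and Rpl32, also had none called and medians of 0.15 and 0.13.

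Snhg9 was the single noncoding host called in any comparison, higher with PTH than with YKL-05-093 (log2 fold change 1.15, SE 0.32, adjusted p = 0.0281). In that comparison 1.21% of all tested genes were called. Snhg9 was at 20.8 and 22.9 RPKM with vehicle, 23.3 and 24.9 RPKM with PTH, and 17.4 and 6.66 RPKM with YKL-05-093. The call rests on YKL-05-093 replicate 2, without which the value was 0.46, and it was kept in 2 of 10 alternatives that leave out no library. The call was also lost without PTH replicate 1 (value 1.2) and without PTH replicate 2 (value 1.1). Snhg9 reads, 25 to 116 per library, were few.

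**Figure D4:**
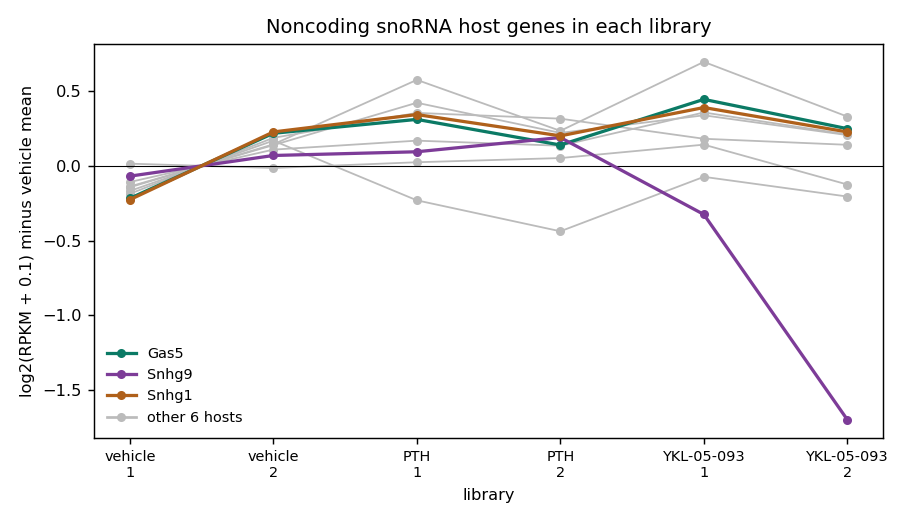
Log2(RPKM + 0.1) of the 9 tested noncoding snoRNA host genes in each library, as the difference from the mean of the vehicle libraries. Gas5 and Snhg1 run together, low in vehicle replicate 1, and Snhg9 drops to 6.66 RPKM in YKL-05-093 replicate 2.

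The snoRNAs inside these hosts were not seen. All 9 snoRNA rows nested in Gas5 and all 8 in Snhg1 were listed at 0 in every library, although their hosts had 18510 and 7343 reads in all. Of all listed snoRNA rows that share bases with an exon of another gene on the same strand, 59 of 160 had a read in some library, and of those that share none, 371 of 1365. How reads that fall on both a host exon and a nested gene were counted is not given in the sources used here, so the zeros are no measure of the snoRNAs, and whether they touch the values of the hosts was not tested. The 1 short RNA row nested in Malat1 and the 3 in Neat1 were at 0 as well.

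The imprinted members were at the edge of detection in these cells, with or without treatment. Meg3 had 1 read in vehicle replicate 1, PTH replicate 2 and YKL-05-093 replicate 1 and 0 in the other libraries. H19 had 2 reads in PTH replicate 1, 1 in YKL-05-093 replicate 1 and 0 elsewhere. Rian had 2 and 1 reads in the YKL-05-093 libraries and 0 in the other 4, and its second identifier (ENSMUSG00000099249) was at 0 throughout. Mirg had 1 read in vehicle replicate 1 and 1 in YKL-05-093 replicate 2.

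A value of 3 reads, the floor used here, corresponded to 0.00661 to 0.0106 RPKM for Meg3, 0.0155 to 0.0248 RPKM for Rian, 0.0371 to 0.0592 RPKM for H19 and 0.0643 to 0.103 RPKM for Mirg, and covers counting error only. All values lay under it as computed here, so no fold change is given and a change in these genes was not detectable at this depth. The reads of Rian and Mirg are the smallest whole numbers that the RPKM steps allow. At the lengths in the GENCODE annotation they would be at most 5.27 for Rian and 4.37 for Mirg, above 3 reads. For these 2 genes the place under the floor therefore depends on the length taken. Of the 18 rows nested in Rian, 13 of them snoRNAs, 1 had a single read in 1 library, and all 14 miRNA rows nested in Mirg were at 0.

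The neighbours of these barely detected genes were not all so low. Of the 11 listed genes of the Dlk1-Dio3 cluster and its surroundings, Meg3, Rian and Mirg included, 7 rows passed the filter. Dlk1, a paternally expressed inhibitor of cell differentiation, was at 2.96 and 3.26 RPKM with vehicle, 2.94 and 3.75 RPKM with PTH, and 4.07 and 3.81 RPKM with YKL-05-093, and was not called. Rtl1, the retrotransposon-like gene antisense to several miRNAs of the cluster, was listed at 0 in all libraries. The highest genes in the region, Ppp2r5c, Dync1h1 and Wars, which flank the imprinted cluster, averaged 25.4, 15.7 and 12.9 RPKM and were not called.

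Dio3, which encodes the deiodinase that inactivates thyroid hormone and lies at chr12:110279068-110281097, was the single gene of that region called. That is 1 of 7 tested rows, beside 1.91% of all tested genes with PTH and 1.21% for PTH against YKL-05-093. Dio3 was at 0.312 and 0.257 RPKM with vehicle, 1.52 and 1.43 RPKM with PTH, and 0.411 and 0.263 RPKM with YKL-05-093. Both PTH libraries stood above the other 4. The log2 fold change was 2.04 with PTH (SE 0.23, adjusted p = 0.00656), on 114 and 95 reads against 19 and 25. Dio3 passed the filter through the PTH libraries alone, since the other 4 were under 0.5 RPKM, so it entered the test by the group in which it is high. With YKL-05-093 it was 0.17 (SE 0.33, adjusted p = 0.935), and PTH was higher than YKL-05-093 by 1.87 (SE 0.23, adjusted p = 4.05e-05). The call with PTH was kept without either vehicle library and in 7 of 10 alternatives that leave out no library. It was lost without either PTH library, in fits that called 14 genes in all against vehicle and 0 against YKL-05-093. The PTH calls of Col2a1 and Nap1l5 were lost there as well. The gene at the far end of the cluster was called with PTH while Meg3, between Dlk1 and Dio3, stayed under 3 reads. Rian and Mirg, also between them, did so if their smallest possible reads are taken.

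Of 17 genes listed for the regions of H19 and Kcnq1ot1, 16 had a row, H19 itself among them, and 5 passed the filter. Of these 5, 0 were called in any comparison, beside 1.91%, 0.666% and 1.21% of all tested genes. Igf2, the growth factor gene next to H19, was at 21.2 and 19.6 RPKM with vehicle, 21.5 and 24.4 RPKM with PTH, and 24.5 and 23.4 RPKM with YKL-05-093, in the same libraries in which H19 had at most 2 reads. Kcnq1, Cdkn1c and Phlda2, the last 2 of them growth-restraining genes that the Kcnq1ot1 domain is known to silence on the paternal chromosome, averaged under 0.02 RPKM. Cd81 and Nap1l4, at 101 and 56.8 RPKM on average, were the most abundant genes of the region. Osbpl5, an oxysterol-binding protein gene, was at 14.3 and 11.8 RPKM with vehicle, 6.72 and 6.78 RPKM with PTH, and 11.0 and 12.0 RPKM with YKL-05-093. Its log2 fold changes of -0.93 with PTH (adjusted p = 0.0394) and -0.76 for PTH against YKL-05-093 (adjusted p = 4.76e-06) passed the adjusted p but not the 2-fold limit. Without vehicle replicate 2 it was called with PTH (-1.07, adjusted p = 0.00585).

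Kcnq1ot1 itself could be approached only through 4 short rows named KCNQ1OT1_1, _2, _3 and _5, noticed after their values were seen. They are annotated as short conserved pieces on the plus strand of chromosome 7 inside the span of Kcnq1ot1, which is on the minus strand. KCNQ1OT1_5 had 6 and 7 reads with vehicle, 1 and 1 with PTH, and 6 and 3 with YKL-05-093. The other 3 rows had 0 to 5 reads in each library. With so few reads these rows do not measure Kcnq1ot1, and whether reads of its strand were counted in them is not known.

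**Figure D5:**
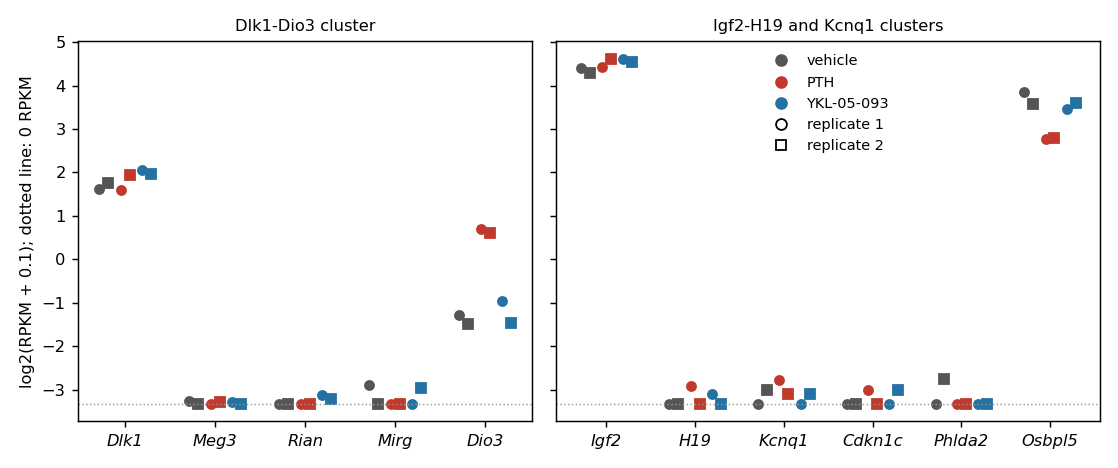
Log2(RPKM + 0.1) of genes of the Dlk1-Dio3 cluster (left) and of the Igf2-H19 and Kcnq1 clusters (right) in each library, with circles for replicate 1, squares for replicate 2 and a dotted line at 0 RPKM. Meg3, Rian, Mirg and H19 lie near the dotted line, Dlk1 and Igf2 are expressed in all 6 libraries, and Dio3 is higher in both PTH libraries than in the other 4.

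Among 24 other imprinted genes that passed the filter, 1 was called, beside 1.91% of all tested genes with PTH and 1.21% for PTH against YKL-05-093. Nap1l5, a nucleosome assembly protein gene, was at 0.0302 and 0.0189 RPKM with vehicle, 1.47 and 1.30 RPKM with PTH, and 0.599 and 0.561 RPKM with YKL-05-093. It passed the filter through the treated libraries alone. With 1 read in each vehicle library, the reads per library read were 59.8 times higher with PTH (95% counting interval 16.2 to 500.0, exact binomial). Its fitted log2 fold change with PTH was 3.58 (adjusted p = 0.00992), with YKL-05-093 2.45 (adjusted p = 0.155) and for PTH against YKL-05-093 1.13 (adjusted p = 0.00843), values that depend on the pseudocount. The call of PTH against YKL-05-093 was lost whichever of the 4 libraries was left out. The best expressed genes of this list, Dcn, Grb10 and Mest, averaged 93.6, 46.0 and 27.0 RPKM and were not called.

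Protein partners and neighbours of Malat1 and Neat1 showed no called change. Of 26 tested paraspeckle proteins, 0 were called in any of the 3 comparisons. Over all tested genes 1.91%, 0.666% and 1.21% were called, so counts of 0 in lists of this size are near those shares. The median log2 fold change was -0.19 with PTH and -0.12 with YKL-05-093, beside -0.03 and -0.04 over all tested genes. With PTH 15.4% had a positive value, against 45.7% of all tested genes, and with YKL-05-093 23.1% against 43.2%. These differences rest on the same vehicle libraries and were not tested. Nono, a core paraspeckle protein, was at 87.0 and 86.2 RPKM with vehicle, 89.7 and 85.0 RPKM with PTH, and 90.3 and 96.7 RPKM with YKL-05-093. Of 28 tested nuclear speckle proteins 0 were called, with medians of -0.12 and -0.10, and 25.0% had a positive value with each treatment. Srsf1, a splicing factor, was the most abundant, at 170 and 141 RPKM with vehicle and 113 to 117 RPKM in the treated libraries (adjusted p = 0.376 with PTH and 0.625 with YKL-05-093). In the region that holds both genes, 0 of 13 tested genes were called, a count that includes Malat1 and Neat1 themselves. Pola2, a DNA polymerase subunit gene of that region, averaged 32.1 RPKM.

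Other known long noncoding RNAs were also below the call. Of 24 listed, 16 passed the filter and 0 were called, near the 1.91%, 0.666% and 1.21% called over all tested genes. Their medians were -0.13 with PTH and -0.21 with YKL-05-093, beside -0.03 and -0.04 over all tested genes. Tug1, a nuclear RNA, was at 11.6 and 6.93 RPKM with vehicle and at 6.53 to 7.68 RPKM in the treated libraries, again with its highest value in vehicle replicate 1. The Pol III transcripts Rn7sk and Rpph1 were by far the highest of the list, at 72900 and 32800 RPKM on average, and both were lowest in vehicle replicate 1.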

How the data were processed

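The 6 libraries of Ocy454 cells were read from a table of RPKM values deposited by the authors, 1 library per column; the authors used STAR for the alignment to GRCm38 (mm10) and HTSeq v0.6.0 with Ensembl annotation (release 75) for the gene counts, then divided by gene length and library reads. Adapter and quality handling is not given in the sources used here. The members and gene lists were chosen with earlier results of these data known.

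Reads behind each RPKM were recovered as the whole numbers that all 6 values of a gene allow (26214 genes above 0). The library totals that the values imply were 17505798 to 27983585 reads, the divisors of the RPKM rather than all reads sequenced. Genes reaching 0.5 RPKM in 2 or more libraries were tested with limma 3.58.1 (R 4.3.3) on log2(RPKM + 0.1), with a variance trend on the mean log2 recovered reads, 4 libraries per comparison, and Benjamini-Hochberg adjustment over all tested genes; genes at 0 in all 4 were left out. The pseudocount makes fold changes of low genes too small. Calls needed an adjusted p under 0.05 and a change over 2-fold. Named genes were all members, each called gene and the 3 most abundant genes of each list, and the 3 nearest profiles of each tested member; others named were chosen after their values were seen. Some genes that the rule names are not reported here. Genes of a list were written from general knowledge. The code was tested on simulated data. Positions came from GENCODE M21 (GRCm38), which holds 37607 of the listed identifiers. Sequences were taken from RefSeq (GRCm38.p6); Neat1 and H19 had no promoter entry. Libraries were strand-specific, but the strand setting of the counting is not given in the sources used here.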

Additional observations from a re-analysis of the deposited data

How the results depend on the processing

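Of 180 values of single members under the alternatives, 162 kept their sign and their side of the threshold, 16 changed sign and 2 became calls, both of them Malat1 without vehicle replicate 2. The sign changes outside of leaving out a library concern values near 0. Neat1 went to -0.0096 with PTH and -0.0017 with YKL-05-093 at a pseudocount of 1, and to 0.024 for PTH against YKL-05-093 with the length trend removed, where Malat1 went to 0.0027. Leaving out a library moved Malat1 between -1.09 and 0.16 with PTH, between -1.08 and 0.18 with YKL-05-093 and between -0.15 and 0.13 for PTH against YKL-05-093; Neat1 between -0.44 and 0.46, between -0.43 and 0.47 and between -0.14 and 0.12; and Snhg1 for PTH against YKL-05-093 between -0.12 and 0.049. Against vehicle, Gas5 moved between 0.0079 and 0.44 with PTH and between 0.13 and 0.56 with YKL-05-093, and Snhg1 between 0.043 and 0.50 and between 0.080 and 0.54. The number of members called was 0 or 1 when a library was left out and 0 otherwise.

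The number of genes called, which is the background of the members, moved more. With PTH against vehicle it was 272, and 0 with no filter, 160 with the variance trend on the mean value, 440 with the replicate block and 14 to 669 when a library was left out. With YKL-05-093 against vehicle it was 95, and 55 at a pseudocount of 1, 0 with no filter, 57 with a filter of 0.1 RPKM, 173 in 1 fit of all 6 libraries, 6 with the trend on the mean value, 215 with the replicate block, 178 with the length trend removed (added after seeing the data) and 11 to 321 when a library was left out. With PTH against YKL-05-093 it was 172, and 1421 with no limit on the fold change, 98 at a pseudocount of 1, 102 in 1 fit of all 6 libraries and 0 to 155 when a library was left out. A group left with 1 library is assumed to vary like the others. With no filter every gene above 0 in a fitted library is tested. The causes of the other moves were not tested. The replicate number was not taken to pair libraries, since the same-numbered deviations correlated at -0.03, -0.05 and -0.05 across genes. With the replicate block 0 members were called in each comparison. Depth does not limit Malat1, Neat1, Gas5 and Snhg1, while Meg3 and H19 are below 3 reads. Rian and Mirg are below 3 reads too if their smallest possible reads are taken.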

Other observations

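Among 548 tested genes that GENCODE M21 gives a noncoding gene type, which includes some processed transcripts of coding loci, 2 were called higher and 3 lower with PTH (0.912%), 0 higher and 1 lower with YKL-05-093 (0.182%), and 6 higher and 2 lower for PTH against YKL-05-093 (1.46%). The shares of all tested genes called were 1.91%, 0.666% and 1.21%, and the differences from these were not tested. Those called with PTH were named after their values were seen. Higher were Gm16062, at 1.86 and 2.28 RPKM with vehicle and 5.54 and 5.93 RPKM with PTH, and 2310043M15Rik, at 0.147 and 0.161 against 1.28 and 1.25 RPKM, a gene that passed the filter through the treated libraries alone. Lower were Gm20655, at 4.46 and 5.13 against 1.55 and 1.54 RPKM, Gm15663, at 2.48 and 2.60 against 1.03 and 1.12 RPKM, and 6330403L08Rik, at 3.01 and 2.63 against 1.15 and 0.788 RPKM. The last was also called lower with YKL-05-093, at 1.13 and 0.934 RPKM (log2 fold change -1.37, limma adjusted p = 0.0318). Gm20655 was at 4.14 and 3.92 RPKM with YKL-05-093 and differed between the treatments (PTH against YKL-05-093, log2 fold change -1.33, adjusted p = 0.000243), while 6330403L08Rik did not pass that test (-0.10, adjusted p = 0.826). All 5 calls with PTH were lost without either PTH library, as was the call of 6330403L08Rik with YKL-05-093 without either of those libraries or without vehicle replicate 1. The call of Gm20655 between the treatments was lost whichever of the 4 libraries was left out.

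Of the bone genes listed as markers of the line, Pdpn and Bglap were called higher and Sp7, an osteoblast transcription factor, lower with PTH, 3 of 13 tested, beside 1.91% of all tested genes. Sp7 was at 46.0 and 45.5 RPKM with vehicle, 12.2 and 11.1 RPKM with PTH, and 22.4 and 29.6 RPKM with YKL-05-093. Bglap, which encodes osteocalcin, was at 6.61 and 11.5, 27.1 and 25.3, and 11.9 and 11.4 RPKM in the same order. The calls of all 3 with PTH were lost without either PTH library. With YKL-05-093 against vehicle 0 of the 13 were called.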
